A study of Mus musculus with 155 samples.

Results

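The transcriptome of WT-H3.3 oligodendrocyte progenitor cells (OPCs) derived from mouse embryonic stem cells (ESCs) was compared with that of the undifferentiated ESCs of the same line. The comparison used every RNA-seq library of OPCs that express WT-H3.3 (2 libraries, taken 24 and 72 h after doxycycline, Dox) and every library of WT-H3.3 ESCs that received no GSK343 (8 libraries, in pairs taken after 4, 8, 24 or 72 h of Dox). These are 10 of the 42 RNA-seq libraries of a series of 155 samples. The series follows H3.3 with or without a mutation of lysine 27 in KH2 ESCs, a mouse line with a locus for Dox-inducible transgenes, and its other assays are not analysed here. All 10 libraries carry the same transgene, a single extra copy of wild-type H3.3 with a SNAP and HA tag. All of them received Dox (1 µM), so none is an untouched wild type. Cytogenetic karyotyping in the study showed a potential duplication of chromosome 8 in all clones, which e-karyotyping had not detected. The methods state that experiments were repeated weeks apart as biological replicates, but do not name the OPC libraries, of which each Dox time has 1, and they do not give the number of clones behind the line. The p-values thus measure the spread between these libraries. ESCs were kept on gelatin with LIF and 2i, the latter being the MEK inhibitor PD0325901 and the GSK3 inhibitor CHIR99021. OPCs were made through embryoid bodies in knockout serum replacement medium, with retinoic acid and purmorphamine, a small-molecule agonist of the hedgehog pathway, and the disaggregated bodies were then plated in OPC medium. No sort or enrichment of cells after this plating is given in the sources used here, so each OPC library is a culture, and in such bulk RNA fewer cells of a type and less RNA per cell cannot be told apart.

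OPCs are the dividing cells of the central nervous system that give rise to myelin-forming oligodendrocytes. In the ventral spinal cord and hindbrain they arise from progenitors in which sonic hedgehog has induced Olig2 and Nkx2-2, and they then express Sox10 and the PDGF receptor Pdgfra, while radial glia and astrocytes share Sox9, Nfia and Slc1a3 with their precursors. ESCs in LIF and 2i hold the opposite state, with Pou5f1, Nanog and Sox2 at the centre of the naive pluripotency network and with many germline genes active.

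The promoters of 4 genes that mark both ends of the comparison are shown for orientation: Olig2 and Fabp7, which rose in OPCs, and Nanog and Dazl, which stood at or next to 0 there. Sequences were taken from RefSeq (GRCm38.p6) and run from 250 bases before to 50 bases after the start of the gene, on the strand of the gene. Capitals mark each CG dinucleotide.
Olig2, chr16:91225300-91225599, plus strand: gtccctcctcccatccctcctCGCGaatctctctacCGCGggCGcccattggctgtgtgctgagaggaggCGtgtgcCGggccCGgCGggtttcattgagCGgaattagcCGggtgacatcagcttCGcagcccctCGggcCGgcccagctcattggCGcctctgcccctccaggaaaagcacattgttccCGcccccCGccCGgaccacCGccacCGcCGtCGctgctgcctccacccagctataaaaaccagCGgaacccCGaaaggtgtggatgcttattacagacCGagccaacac
Fabp7, chr10:57784673-57784972, plus strand: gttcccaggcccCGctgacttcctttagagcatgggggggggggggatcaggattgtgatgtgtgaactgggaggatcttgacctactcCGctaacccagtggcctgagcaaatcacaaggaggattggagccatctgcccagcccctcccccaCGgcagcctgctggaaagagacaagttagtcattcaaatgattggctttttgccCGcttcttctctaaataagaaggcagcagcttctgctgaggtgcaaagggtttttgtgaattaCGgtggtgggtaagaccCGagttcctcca
Nanog, chr6:122707239-122707538, plus strand: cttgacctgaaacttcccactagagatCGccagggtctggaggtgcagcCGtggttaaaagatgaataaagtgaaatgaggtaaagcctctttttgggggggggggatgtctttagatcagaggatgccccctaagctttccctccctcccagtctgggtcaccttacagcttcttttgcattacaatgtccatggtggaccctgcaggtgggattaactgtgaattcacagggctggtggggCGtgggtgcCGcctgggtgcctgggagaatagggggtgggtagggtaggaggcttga
Dazl, chr17:50293571-50293870, minus strand: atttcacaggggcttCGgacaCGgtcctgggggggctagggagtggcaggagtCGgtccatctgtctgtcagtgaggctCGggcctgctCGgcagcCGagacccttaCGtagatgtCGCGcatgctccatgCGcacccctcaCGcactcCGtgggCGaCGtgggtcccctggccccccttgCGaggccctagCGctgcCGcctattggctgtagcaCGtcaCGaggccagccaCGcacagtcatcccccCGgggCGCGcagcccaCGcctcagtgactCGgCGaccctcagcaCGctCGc
The window of Olig2 holds 25 CG dinucleotides (0.815 of the number its C and G content would give) and that of Dazl 28 (0.795). The windows of Fabp7 and Nanog hold 6 (0.276) and 4 (0.192).

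Total counts ran from 8245552 to 16083610 in the ESC libraries (median 11799110) and were 12387113 and 10496758 in the OPC libraries of 24 and 72 h. The 2 OPC libraries differed from each other by a median of 0.171 on the log2 scale per gene, inside the range of the 28 pairs of ESC libraries (0.159 to 0.417), whereas ESC and OPC libraries differed by 1.48 to 1.55 in all 16 pairs. The mean Spearman coefficient with the 8 ESC libraries was 0.58 for the OPC library of 24 h and 0.587 for that of 72 h (13495 genes), against 0.994 between the OPC libraries and 0.969 to 0.995 between ESC libraries. The OPC libraries differ in Dox time and replicate number at once, and for the library of 72 h the column heading and the sample title give different replicate numbers, so that no effect of Dox time within OPCs was tested. The methods name a 3′-end kit (QuantSeq) and a full-length kit (KAPA) without saying which library was made with which, so kit and cell type cannot be told apart.

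One feature of the counts moved with the comparison and is given before the genes. Among protein-coding genes at a mean of 1 CPM or more, those whose last 500 exonic bases are theirs alone had a median log2 fold change (OPC against ESC) of −0.02 (n = 10446). Where at least 10% of these bases overlap the exons of another gene the median was −1.22 (n = 963), where they repeat 40-base words of another gene it was −1.05 (n = 654), and where both hold it was −1.64 (n = 52). The 35 tested genes of cytosolic ribosomal proteins, which are usually made in fixed proportion, spread from −4.91 (Rps6) to 2.68 (Rpl27) with an SD of 1.86, of which the 13 with unshared ends covered −1.06 to 1.98 (SD 0.82). Between any 2 ESC libraries the same 35 genes had an SD of 0.08 to 0.39, and between the OPC libraries of 0.14. The actin gene Actg1, named after its value was seen, lay at 118 to 214 CPM (median 193) in ESCs and at 0.185 and 0 CPM in OPCs, and 91.1% of its last bases are repeated elsewhere. The same order of medians stood in the H3.3K27M line (−0.07 unshared, −1.19 overlap, −0.89 repeated words). Whether library kit or counting accounts for these differences was not tested. Genes with shared ends are marked as such below, and list counts are repeated over genes with unshared ends where this moved their balance.

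**Figure D1:**
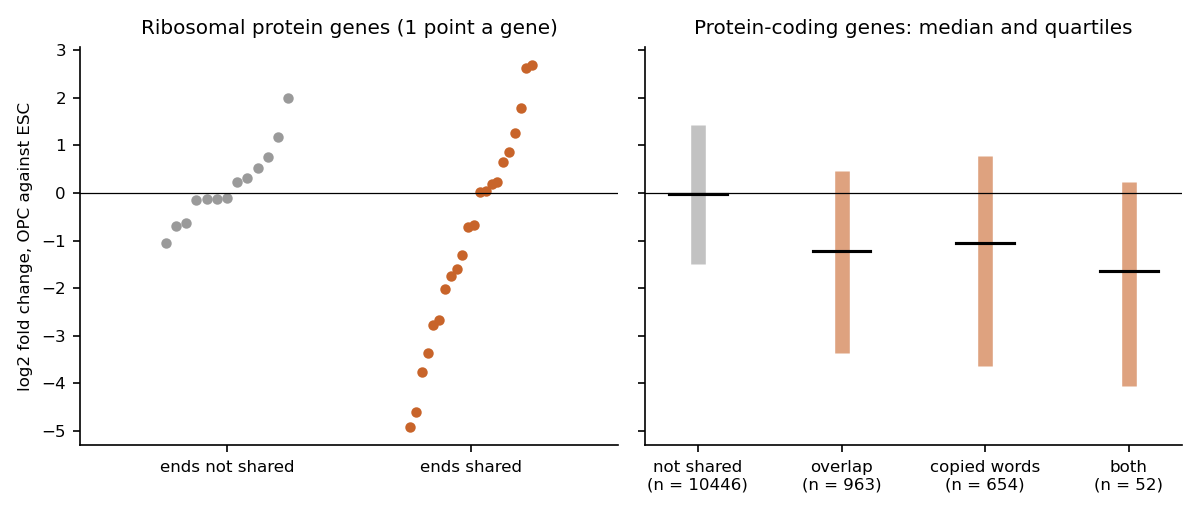
Left, log2 fold change (OPC against ESC, y axis) of each tested ribosomal protein gene, split by whether its last 500 exonic bases are shared with another gene. Right, median (line) and quartiles (bar) of protein-coding genes by kind of sharing, where the 3 shared classes lie at −1.22, −1.05 and −1.64 and the unshared class at −0.02.

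Of 15378 genes tested, 4672 were called higher in OPCs (30.4%) and 5884 lower (38.3%) at an adjusted p under 0.05 and a fold above 2 or below 0.5 (edgeR's quasi-likelihood test, Benjamini-Hochberg adjustment). Both OPC libraries lay above all 8 ESC libraries for 4650 of the genes called higher, and below them for 5755 of those called lower. Against the 4 ESC libraries of 24 and 72 h, which match the Dox times of the OPC libraries, 4656 of 14870 genes were called higher (31.3%) and 5557 lower (37.4%). Over genes with unshared ends the balance was nearer to even, with 3644 of 11563 called higher (31.5%) and 3879 lower (33.5%). With 7 of the 8 residual degrees of freedom from ESCs and 1 from OPCs, the test takes OPC libraries to vary like ESC libraries. Gene lists below are read against these shares, and as a description: a gene silent in 1 cell type could pass the filter on low counts only through the libraries where it was expressed. Values are given in CPM (counts scaled to library size), log2 fold changes with their SE (n = 8 ESC and 2 OPC libraries), and OPC values in the order 24 h, 72 h.

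**Figure D2:**
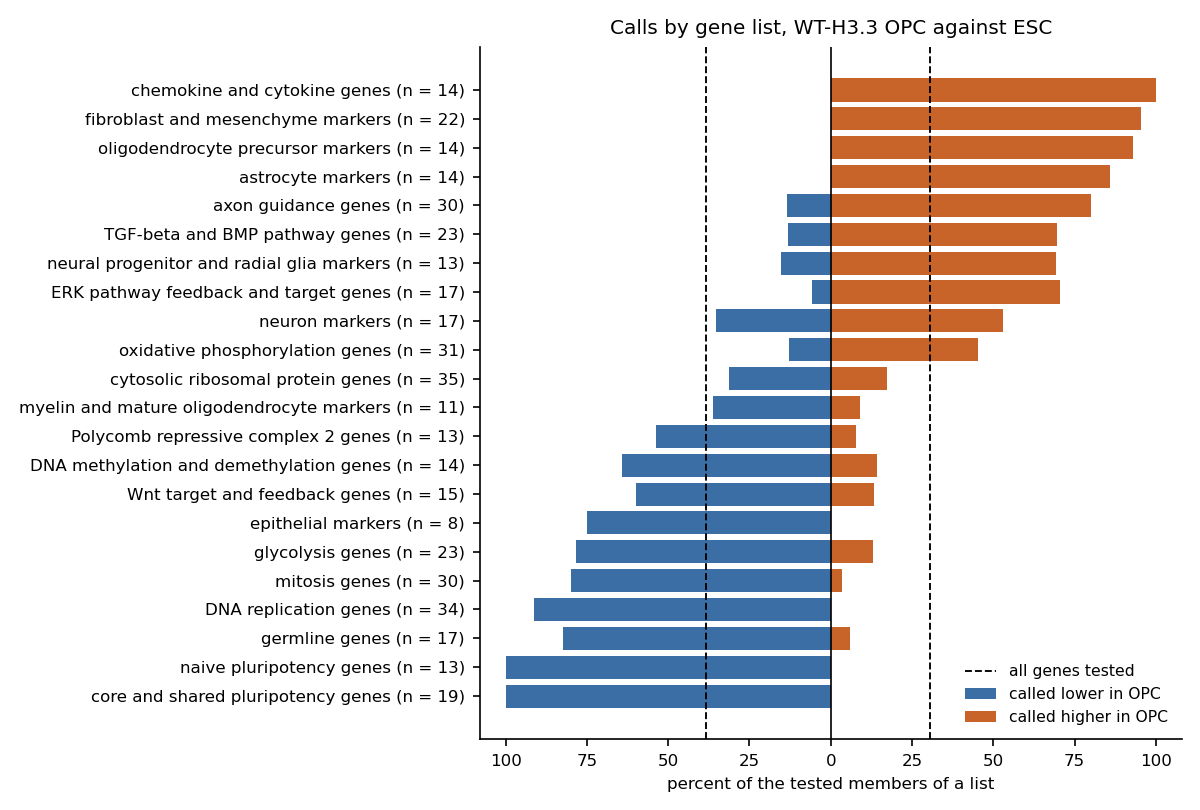
Share of the tested members of each gene list (x axis, percent, n beside the name) that was called higher (right) or lower (left) in OPCs than in ESCs. Dashed lines mark the share over all genes tested, 30.4% higher and 38.3% lower.

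Markers of the label OPC were read first. Of 20 OPC markers 14 were tested, 13 were called higher in OPCs and none lower, with a median log2 fold change of 4.23 against −0.25 over all genes tested, and all 13 were called again over genes with unshared ends. The summed level of the list was 59.3 to 92.7 CPM in ESCs and 1147 and 1173 CPM in OPCs. Members near 0 in ESCs, such as Nkx2-2, could be tested only because the OPC libraries held them, so their direction is no support in itself. Among genes of at least 10 counts in every library, 6 markers were tested and 5 called higher. The core transcription factors of the lineage were among the 13 genes called higher in the main fit. Olig2 (chr16:91225795-91228922, mm9), which specifies motor neuron and oligodendrocyte progenitors, lay at 17.5 to 25.7 CPM (median 22.9) in ESCs and at 350.1 and 294 CPM in OPCs. Its neighbour and partner Olig1 (chr16:91270014-91272184) lay at 8.43 to 13.5 CPM (median 10.9) and at 161 and 176 CPM. Both genes were thus detected in every ESC library and stood above all of them in OPCs, with log2 fold changes of 3.77 ± 0.14 (adjusted p = 4.65e-12) for Olig2 and 3.86 ± 0.15 (adjusted p = 7.88e-12) for Olig1. Nkx2-2, the homeobox factor of the most ventral progenitors, lay at 0 to 0.376 CPM (median 0.105) in ESCs and at 39.3 and 40.7 CPM in OPCs (log2 fold change 7.96 ± 0.34, adjusted p = 2.37e-11).

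Genes listed here as markers of committed OPCs also rose. Whether their transcripts came from OPCs or from other cells of the culture was not tested. Sox10, which is required for the oligodendrocyte programme, lay at 0 to 0.614 CPM (median 0.0897) in ESCs and at 2.03 and 3.61 CPM in OPCs (22 and 33 counts, log2 fold change 4.11 ± 0.54, adjusted p = 4.82e-06). Pdgfra, the receptor through which PDGF keeps OPCs dividing, lay at 0.359 to 1.88 CPM (median 0.97) and at 16.5 and 24.8 CPM (4.34 ± 0.33, adjusted p = 1.24e-08), and the proteoglycan Cspg4, known as NG2, lay at 0 to 0.628 CPM (median 0.213) and at 9.06 and 11 CPM (5.23 ± 0.41, adjusted p = 1.92e-08). None of these 3 genes overlapped between the groups, as was the case for 4650 of all 4672 genes called higher. The matrix and surface genes of the list were also higher, with Ptprz1 at 215 and 227 CPM (ESC median 0.782), Bcan at 109.6 and 126 CPM (ESC median 1.93) and Vcan at 99.8 and 109 CPM (ESC median 29.1). C1ql1 was not called (1.95 to 5.12 CPM (median 3.38) and 2.96 and 1.42 CPM). Without the OPC library of 24 h it was called lower (-1.39, adjusted p = 0.035). Gpr17, Pcdh15, Tnr, Matn4 and Zfp488 stayed under 1 CPM in all 10 libraries and were not tested.

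Genes of myelin did not follow. Of 16 listed 11 were tested, 1 was called higher (the tetraspanin Tspan2, 10.3 and 13 CPM, ESC median 4.61) and 4 lower (Mog, Mobp and Mal among them). Of the 10 with unshared ends 0 were higher and 4 lower. The fold change of Tspan2 sat at the threshold (1.0 ± 0.25) and its call was lost without the OPC library of 72 h (0.86) and without 5 of the ESC libraries, while the call of Mal was lost without either OPC library (adjusted p = 0.0782 without that of 24 h and 0.124 without that of 72 h) and without the ESC library of replicate 2 at 72 h. Mbp, which encodes myelin basic protein, lay at 0.696 to 1.75 CPM (median 1.14) in ESCs and at 1.29 and 2.62 CPM in OPCs and was not called. Myrf, the factor that switches on the myelin genes, lay at 2.1 to 9.06 CPM (median 3.13) and at 3.42 and 4.05 CPM and was not called.

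**Figure D3:**
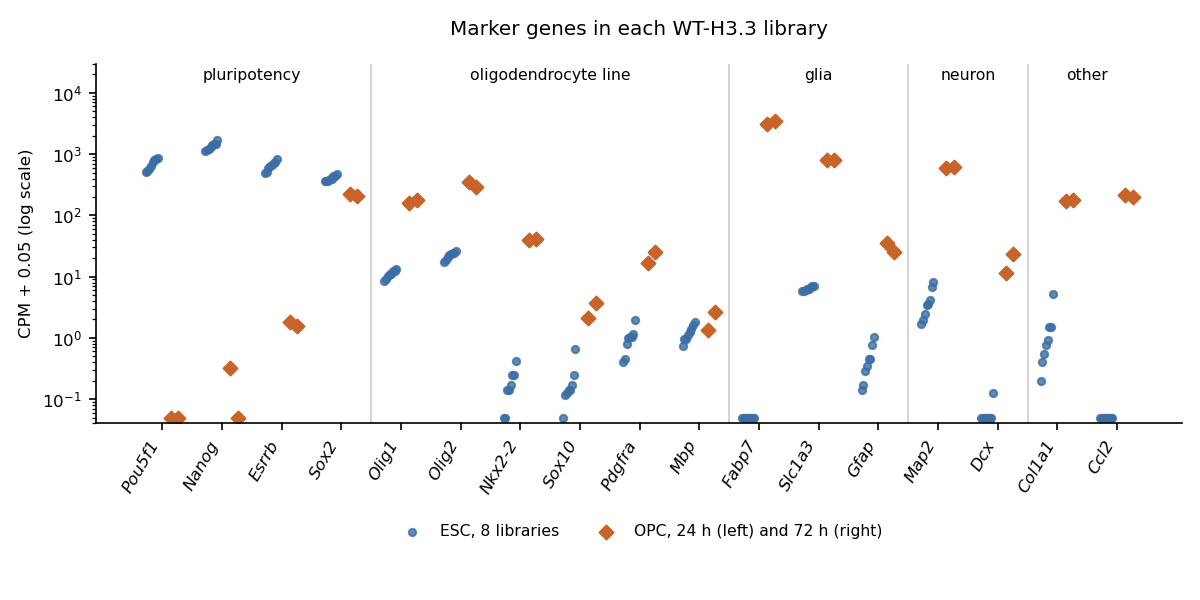
CPM plus 0.05 (y axis, log scale) of 17 marker genes in each of the 8 ESC libraries (circles) and the 2 OPC libraries (diamonds, 24 h left and 72 h right). The OPC libraries lie above every ESC library for Olig1, Olig2, Nkx2-2, Sox10, Pdgfra, Fabp7, Slc1a3, Gfap, Map2, Dcx, Col1a1 and Ccl2, below every one for Pou5f1, Nanog, Esrrb and Sox2, and overlap them for Mbp.

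Markers of radial glia and astrocytes also rose. Of 15 astrocyte markers 14 were tested, 12 were called higher and none lower (median log2 fold change 5.87), and their summed level was 217 to 285 CPM in ESCs and 5037 and 5356 CPM in OPCs. Slc1a3 (chr15:8584124-8660764), the glutamate transporter of radial glia and astrocytes, lay at 5.74 to 6.95 CPM (median 6.19) in ESCs and at 788 and 809.8 CPM in OPCs (6.89 ± 0.11, adjusted p = 4.3e-15). The gliogenic factors Sox9 (0.0752 to 0.325 CPM (median 0.156) and 786 and 616 CPM) and Nfia (0.676 to 2.09 CPM (median 1.67) and 430.3 and 453 CPM) rose by 11.73 ± 0.19 and 8.1 ± 0.22 on the log2 scale. Genes of more mature astrocytes were present too. Gfap, the intermediate filament of astrocytes, lay at 0.0898 to 0.986 CPM (median 0.349) and at 35.5 and 25.5 CPM (6.04 ± 0.34, adjusted p = 5.33e-10), and Aqp4, their water channel, had no count in any ESC library and 35.7 and 30.2 CPM in OPCs, at least 89.3-fold higher when 3 counts are allowed in each ESC library. Gja1 and Aldh1l1 (shared end) were not called, although Aldh1l1 (-1.0 ± 0.25) was called lower when the OPC library of 72 h or any of 3 ESC libraries was left out.

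In the neural progenitor and radial glia list, 9 of 13 tested genes were called higher and 2 lower, and of 11 with unshared ends 8 and 1. Fabp7 (chr10:57504687-57508256), the lipid-binding protein of radial glia, had no count in any of the 8 ESC libraries and lay at 3063 and 3456 CPM in OPCs, at least 8843-fold higher. The intermediate filaments Vim (230.1 to 503 CPM (median 390.2) and 4320.5 and 4090.1 CPM) and Nes (34.4 to 95.7 CPM (median 46.8) and 227 and 227 CPM) rose by 3.38 ± 0.2 and 2.0 ± 0.26. Sox2, which ESCs and neural progenitors share, moved the other way: 359 to 481 CPM (median 395) in ESCs against 221 and 205 CPM in OPCs, a log2 fold change of -1.01 ± 0.15 (adjusted p = 2.24e-05). Sox2 kept the highest level of the core pluripotency list in OPCs relative to its own ESC level. Sox3, its close relative, rose, at 1.88 to 5.21 CPM (median 3.56) in ESCs and 52 and 52 CPM in OPCs. Pax6, which marks more dorsal progenitors (shared end), reached only 4.81 and 4.37 CPM from an ESC median of 2.22. The call of Sox2 lay at the 2-fold threshold. It was lost without the OPC library of 72 h (-0.93). It was also lost without the ESC library of replicate 2 at 24 h (-0.995) or at 72 h (-0.97). Other processing lost it too, among others DESeq2 and its size factors (both -0.915), upper quartile scaling (-0.995) and an offset for gene length (-0.739). With 20 libraries of both lines in the model Sox2 was at -0.927 and not called. The call of Pax6 was lost without either OPC library (1.06 without that of 24 h and 1.24 without that of 72 h).

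Neuronal genes were divided, with 9 of 17 tested called higher and 6 lower. Among those called higher were Map2 (603 and 615 CPM, ESC median 3.44), Gap43 (192 and 274 CPM, ESC median 5.48) and Dcx, of migrating young neurons (11.6 and 23.2 CPM, ESC median 0). Among those called lower were Stmn2 (228 to 417 CPM (median 339) and 168 and 120.5 CPM, -1.29 ± 0.23), Nefl (8.6 and 9.07 CPM, ESC median 62.2) and Isl1, of motor neurons (0.0924 and 0.109 CPM, ESC median 1.67). The transmitter markers Slc17a6 and Gad2 were below 1 CPM in OPCs. Guidance molecules, many of which glia also make, rose in the main: 24 of 30 tested were called higher and 4 lower, for example Sema3a (0 to 0.401 CPM (median 0.155) and 132 and 122 CPM) and Sema6a (1.67 to 3.23 CPM (median 2.32) and 124 and 138 CPM), while Ntn1 fell (74.8 to 145 CPM (median 113) and 54.7 and 44.4 CPM, -1.24 ± 0.23).

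Markers of mesenchyme were also present in the WT-H3.3 OPC cultures. Of 22 fibroblast and mesenchyme markers all were tested, 21 were called higher and none lower, and their summed level was 1194 to 2026 CPM in ESCs and 5092 and 4543 CPM in OPCs. The fibrillar collagens Col1a1 (0.15 to 5.25 CPM (median 0.787) and 169.7 and 177 CPM, 7.03 ± 0.49) and Col3a1 (222 and 253 CPM, ESC median 0), the matrix proteoglycan Dcn (0 to 0.134 CPM (median 0.0325) and 104 and 104 CPM, 10.56 ± 0.28) and the limb mesenchyme factor Prrx1 (47.7 and 33.7 CPM, ESC median 0) were among them. S100a4 had no count in ESCs and 119 and 106 CPM in OPCs (at least 305-fold higher). Fn1 was not called (648 to 1610.3 CPM (median 1156) and 755 and 597 CPM). Endothelial markers were split, with 4 called higher and 4 lower of 8 tested: Kdr reached 4.71 and 8.75 CPM and Flt1 10.9 and 15.7 CPM from ESC medians of 1.22 and 0.599, while Tie1 and Cldn5 had no count in OPCs. The endoderm factors Gata6 (11.2 and 16 CPM, ESC median 0.285) and Sox17 (10.3 and 14.8 CPM, ESC median 0.599) were called higher, with 6 of 12 endoderm markers higher and 1 lower (Apoe, 474 to 799.8 CPM (median 563) and 42.3 and 24.3 CPM). Foxa2, which is in that list, is also a gene of the floor plate of the neural tube. Of muscle markers 0 were called higher and 4 lower of 5 tested, of epithelial markers 0 and 6 of 8, and of blood markers 1 and 2 of 3. Without the OPC library of 24 h, 2 epithelial and 2 blood markers were called higher, without that of 72 h 2 blood markers were, and without the ESC library of replicate 1 at 4 h 2 endoderm markers were called lower. The lineage-defining genes Myod1, Ptprc, Tyrobp and Cx3cr1 had no count in OPCs. The part of mesenchymal or other cells in the changes described below was not tested.

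At the other end of the comparison the genes of the pluripotency network fell together. All 19 tested core pluripotency genes and all 13 tested naive genes were called lower, with median log2 fold changes of -9.55 and -8.42 (-8.64 and -7.71 when genes without a count in OPCs are set to their bound of 3 counts per library). Their summed levels were 6628 to 7881 CPM and 4256 to 5454 CPM in ESCs, against 279 and 265 CPM and 210.3 and 198 CPM in OPCs. Pou5f1 (chr17:35642982-35647721), the factor without which pluripotency is lost, lay at 519 to 863 CPM (median 694) in ESCs and had no count in either OPC library, at least 2095-fold lower. Nanog (chr6:122657507-122664651) lay at 1132 to 1702 CPM (median 1357) in ESCs and had 3 counts in the OPC library of 24 h and 0 in that of 72 h. Tdgf1 and Fgf4, both made by ESCs, had no count in OPCs either (at least 2355-fold and 733-fold lower).

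The naive factors that 2i and LIF sustain left small but countable remainders. Esrrb lay at 488 to 818 CPM (median 658) in ESCs and at 1.76 and 1.53 CPM in OPCs (-8.69 ± 0.33), and Tfcp2l1 at 577 to 1698 CPM (median 961) and at 5.55 and 3.94 CPM (-7.77 ± 0.56). Klf4 (218 to 424 CPM (median 308) and 112 and 103 CPM, -1.61 ± 0.26) and Klf5 (235 to 292 CPM (median 258) and 61 and 57.2 CPM, -2.21 ± 0.14), which other tissues also use, kept the highest shares of their ESC level within the naive list. Genes of the primed state were mostly lower as well (8 of 12, with 3 higher, and 8 of 10 with unshared ends, with 1 higher), so that Eomes (16.3 to 44.7 CPM (median 36.3) and 0 and 0.109 CPM) and Nodal (89.9 to 132 CPM (median 113) and 0.0924 and 0 CPM), which start mesendoderm, were nearly absent, while Sox4 (20.8 to 29.2 CPM (median 24.4) and 919.5 and 894 CPM, 5.11 ± 0.13) and the neural cadherin Cdh2 (4.47 to 9.61 CPM (median 6.51) and 135 and 113 CPM, 4.11 ± 0.21) rose.

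Germline genes, which are active in ESCs of the naive state, fell in OPCs: 14 of 17 tested were called lower and 1 higher (median -5.93). Dazl (chr17:50418719-50432924), an RNA-binding protein of germ cells, lay at 21.5 to 59.9 CPM (median 42.6) in ESCs and had 1 count in the OPC library of 24 h and 0 in that of 72 h. Tdrd12, of the piRNA pathway, lay at 55.9 to 98.5 CPM (median 79.8) and at 0 and 0.328 CPM, and the meiotic gene Hormad1 had no count in OPCs (10.9 to 33.3 CPM (median 22.7) in ESCs, at least 71-fold lower). The member that moved against the list was the X-linked homeobox gene Rhox6 (0.269 to 2.03 CPM (median 0.758) and 2.4 and 6.23 CPM, 2.18 ± 0.47, adjusted p = 0.000552). It was no longer called without the OPC library of 72 h (1.38, adjusted p = 0.0618).

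Genes that were silent in 1 state and clearly expressed in the other were counted without a test. There were 384 genes under 0.5 CPM in every ESC library and at 5 CPM or more in both OPC libraries, of which 332 have unshared ends. They include Fabp7, Sox9, Nkx2-2, Nkx6-1, Shh, Foxa2, Hoxb5, Hoxb6, Aqp4, Ccl2 and Inhba. In the opposite direction there were 417 genes, of which 218 have unshared and 149 shared ends, among them 9 core pluripotency, 6 naive and 6 germline genes. As a description with no test, CpG-rich promoters (observed to expected CG above 0.6 and GC above 50% in the 300-base window) were less frequent in both sets, with 38.7% of 243 and 37.3% of 220 promoters, than over all tested genes with a promoter (67.1% of 9484). Among genes called higher or lower the shares were 62.8% of 2884 and 62.9% of 3311, and among genes not called 75.1% of 3289. Of the germline promoters 12 of 16 were CpG-rich, against 2 of 7 naive pluripotency and 1 of 9 astrocyte promoters.

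Position along the body axis was read from Hox genes, whose paralog groups run from head (1) to tail (13). Of paralog groups 1 to 5, 9 genes were tested, 5 were called higher and 1 lower. Of groups 6 to 13, 19 were tested, 9 were called higher and 9 lower (median 0.45). Of the 17 of these with unshared ends 6 were higher and 9 lower (median -1.64). Within these groups the direction followed the group number: every tested gene of groups 6, 7 and 8 was called higher, and every gene called in groups 11 to 13 was called lower. Hoxb5 had no count in ESCs and 70.1 and 63.8 CPM in OPCs (at least 182-fold higher). Hoxa5 lay at 0.0994 to 1.84 CPM (median 0.347) and at 91.3 and 98.1 CPM (7.45 ± 0.38), Hoxb6 at 0 to 0.119 CPM (median 0) and at 93 and 111 CPM, and Hoxb8 (shared end) at 0 to 0.358 CPM (median 0.0782) and at 109 and 107 CPM. The tail-most genes were detected in ESCs and nearly lost in OPCs, as Hoxd13 (8.25 to 12.9 CPM (median 11.2) and 0.185 and 0.109 CPM, -6.13 ± 0.43) and Hoxc13 (9.16 to 13.9 CPM (median 12.6) and 0.37 and 0.656 CPM, -4.63 ± 0.34) show. Hoxb genes of groups 3 to 9 were all called higher, whereas in the Hoxd cluster only Hoxd8 was (2.6 to 4.67 CPM (median 3.03) and 7.58 and 7.87 CPM, 1.21 ± 0.24).

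**Figure D4:**
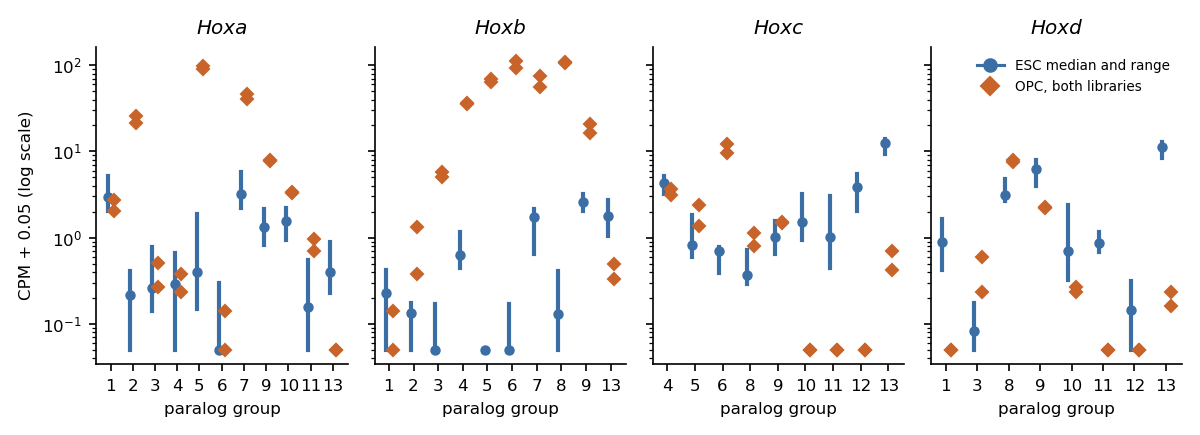
Hox genes by cluster (panels) and paralog group (x axis) in CPM plus 0.05 (y axis, log scale), with the ESC median and range (circle and line) and both OPC libraries (diamonds). Levels are not scaled to length, so genes are compared with themselves: Hoxb3 to Hoxb9 lie higher in OPCs, Hoxc10 to Hoxc13 and Hoxd9 to Hoxd13 lie lower or at 0.

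Retinoic acid, which was given to the embryoid bodies, acts through nuclear receptors, and its list did not move in one direction (4 higher and 4 lower of 15 tested). Cyp26b1, which degrades retinoic acid, rose, at 0 to 0.359 CPM (median 0.0946) in ESCs and 158 and 180.1 CPM in OPCs (10.05 ± 0.3), and the Hox cofactors Meis1 (65.3 and 63.7 CPM, ESC median 0.758) and Meis2 (101 and 104 CPM, ESC median 17.4) rose with it. The receptor gene Rarg fell (73.1 to 114 CPM (median 96.9) and 9.43 and 10.5 CPM, -3.32 ± 0.21), and Stra8, a germ cell target, had no count in OPCs (ESC median 3.86). Cyp26a1 was below 1 CPM in every library.

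The hedgehog and ventral patterning list did not move in one direction, with 5 of 14 tested genes called higher and 4 lower (median 0.45), near the shares over all genes. Higher members were Shh, Foxa2, Nkx6-1 and the co-receptor genes Boc and Gas1, and lower ones included Gli1, Gli2 and Smo. Shh itself, the ligand, lay at 0 to 0.376 CPM (median 0.198) in ESCs and at 72.5 and 44.6 CPM in OPCs (7.94 ± 0.29, adjusted p = 5.76e-12), the floor plate factor Foxa2 at 0 to 0.269 CPM (median 0.071) and at 36.9 and 39.5 CPM, and Nkx6-1, of the ventral progenitor domains, at 0 to 0.15 CPM (median 0.0448) and at 209 and 185 CPM (11.48 ± 0.28). Of the target genes used as readouts, Gli1 and Ptch1 differed. Gli1, the transcriptional target most used as a readout (shared end), lay at 7.37 to 25.5 CPM (median 9.77) and at 0.0924 and 0.547 CPM. Ptch1, the receptor and target, was not called. Its OPC values (79.7 and 84.2 CPM) nevertheless lay above those of every ESC library (38 to 62.4 CPM, median 45.9). Gli2 fell, at 47.4 to 89.1 CPM (median 71.9) in ESCs and 5.08 and 5.36 CPM in OPCs (-3.81 ± 0.34). Whether hedgehog signalling itself differed was not tested. Of the dorsal list 7 of 15 were tested, 3 were called higher and 2 lower. Dbx2, of intermediate progenitors, rose (26.7 and 23.9 CPM, ESC median 0.0782) and Zic2 fell (32.6 to 77.2 CPM (median 47.3) and 0 and 0.109 CPM), while Pax7, Wnt1 and Olig3 were below 1 CPM in every OPC library.

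Signalling genes were then read by the pathways that the ESC medium holds in check or drives. Medium and cell type changed together, so they cannot be told apart. The part of the inhibitors and of LIF in the values here and in the next paragraph was not tested. The 2i medium blocks the MEK kinase, and of 17 tested genes of ERK feedback and response 12 were called higher in OPCs and 1 lower (median 2.42). Dusp6, the ERK phosphatase, lay at 10.9 to 25.1 CPM (median 21.7) in ESCs and at 1396 and 1485 CPM in OPCs (6.07 ± 0.19, adjusted p = 1.37e-12), the immediate early gene Egr1 at 0.909 to 26.1 CPM (median 7.41) and at 898 and 1205 CPM (6.65 ± 0.63), and Spry2 at 83.9 to 141 CPM (median 106) and at 485 and 389 CPM (1.92 ± 0.15). Etv5 and Myc, which respond to ERK in other settings, were not called, and Spred2 fell (44.4 to 71.2 CPM (median 59.7) and 27.3 and 30.2 CPM).

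The 2i medium also inhibits GSK3, which keeps β-catenin active. Of 15 tested Wnt targets 9 were called lower in OPCs and 2 higher (median -2.63). Axin2, the general target, lay at 46.1 to 72.3 CPM (median 57.6) and at 10.2 and 9.73 CPM (-2.63 ± 0.24), Sp5 at 12.9 to 24.6 CPM (median 18.6) and at 0.37 and 0.219 CPM, and Cdx1 had no count in OPCs (ESC median 49.8, at least 152-fold lower). Against the list, Lgr5 (10.9 and 11.4 CPM, ESC median 0.78) and Apcdd1 (56.6 and 84.8 CPM, ESC median 11) rose. LIF acts through STAT3, and 8 of 11 tested genes of this response were lower and 2 higher (8 and 1 of 10 with unshared ends). Socs3, its feedback inhibitor, lay at 93.3 to 139.7 CPM (median 115) and at 7.67 and 11.2 CPM (-3.7 ± 0.24), whereas Stat3 itself (shared end) rose, at 101 to 160.0 CPM (median 139) in ESCs and 302 and 339 CPM in OPCs (1.18 ± 0.15).

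Genes of TGF-β and BMP signalling were mostly higher (16 of 23, with 3 lower, median 3.91). Among ligands, Inhba, which encodes the activin A subunit, had no count in ESCs and 54.5 and 57.2 CPM in OPCs (at least 151-fold higher), and Tgfb2 lay at 0.0898 to 0.977 CPM (median 0.444) and at 159 and 142 CPM (8.08 ± 0.26). Among targets, the Id genes, which restrain differentiation downstream of BMP, were higher throughout: Id3 lay at 36.2 to 53.5 CPM (median 48) and at 2477 and 2732 CPM (5.7 ± 0.13) and Id2 at 4.36 to 7.75 CPM (median 6.23) and at 738 and 816 CPM (6.9 ± 0.19). Among inhibitors, Nog (22.7 and 26.2 CPM, ESC median 0.243) and Fst (58.8 and 62.3 CPM, ESC median 8.76) rose and Smad7 fell (48.3 to 133 CPM (median 80.5) and 8.97 and 8.86 CPM, -3.28 ± 0.34). Notch genes split by member, with 8 of 19 higher and 5 lower: the target Hey1 rose (1.29 to 2.47 CPM (median 1.54) and 86.1 and 76.4 CPM, 5.43 ± 0.19), as did Hes5 (10.4 and 18.1 CPM, ESC median 0.137), while Notch2 and Notch3 were not called.

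Of 20 chemokine and cytokine genes listed 14 were tested, and 14 were called higher in OPCs. Most of them were silent or low in ESCs and could be tested only because the OPC libraries held them, so their common direction is no support in itself. Ccl2, which attracts monocytes, had no count in ESCs and 217 and 199.6 CPM in OPCs (at least 565-fold higher). Csf1, the growth factor of microglia, lay at 0.0898 to 0.716 CPM (median 0.379) and at 345 and 257 CPM (9.46 ± 0.23, adjusted p = 1.32e-13). Nfkbia, the feedback inhibitor of NF-κB, lay at 25.3 to 36.1 CPM (median 29.9) and at 347 and 303 CPM (3.37 ± 0.13). Il6, Il1b and Tnf were below 1 CPM in all 10 libraries.

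Genes of the cell cycle were lower in OPCs. None of 34 tested DNA replication genes was called higher and 31 were called lower (median -2.68), and of 30 mitosis genes 24 were lower and 1 higher (median -2.47). Mcm2, of the replicative helicase, lay at 546 to 644 CPM (median 587) in ESCs and at 97.2 and 99 CPM in OPCs (-2.67 ± 0.15), Top2a at 851 to 1103 CPM (median 928) and at 168 and 199 CPM (-2.46 ± 0.17), and Mki67 at 173 to 513 CPM (median 336) and at 26.4 and 32.9 CPM (-3.54 ± 0.42). The securin gene Pttg1 moved against its list (21.6 to 50.5 CPM (median 39.2) and 106 and 90.4 CPM, 1.28 ± 0.23), and Cdk1, Plk1 and Birc5 were not called. Regulators of G1 changed in kind (9 higher and 6 lower of 16, or 7 and 3 of 11 with unshared ends): Ccnd2 (cyclin D2) rose, at 1.11 to 4.67 CPM (median 2.39) in ESCs and 5962 and 7312 CPM in OPCs (11.25 ± 0.27, adjusted p = 1.08e-13) and Ccne1 (cyclin E1) fell, at 165 to 356 CPM (median 225) in ESCs and 19.7 and 24.9 CPM in OPCs (-3.61 ± 0.33). The CDK inhibitors Cdkn1a (109 to 139 CPM (median 120.2) and 716 and 738 CPM, 2.49 ± 0.12), Cdkn2a (12.8 to 29 CPM (median 23) and 579.5 and 462 CPM, 4.48 ± 0.21) and Cdkn2b (73.4 and 70.8 CPM, ESC median 3.31) rose. Of 17 tested p53 targets 9 were higher and 3 lower. Mdm2, which degrades p53, lay at 92.3 to 133 CPM (median 113) and at 975 and 1036 CPM (3.06 ± 0.13), and the death receptor Fas at 0 to 0.15 CPM (median 0.0497) and at 29.4 and 33.5 CPM (8.61 ± 0.36), whereas Bax fell (115 to 180.0 CPM (median 139.7) and 65.2 and 52.8 CPM).

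The chromatin genes closest to the subject of the series were read next. The transcripts of both H3.3 genes moved in opposite directions. H3f3a (chr1:182730963-182744074) lay at 67.4 to 188 CPM (median 106) in ESCs and at 27 and 29 CPM in OPCs (-2.2 ± 0.37, adjusted p = 6.08e-05), and H3f3b (chr11:115883226-115889276) at 467 to 704 CPM (median 605) and at 1426 and 1630.2 CPM (1.27 ± 0.15, adjusted p = 1.68e-06). Both changes lie inside the range of all tested ribosomal protein genes (−4.91 to 2.68). Both genes have unshared ends, however. Against the ribosomal protein genes with unshared ends (−1.06 to 1.98), H3f3a lay outside the range and H3f3b inside it. Gene counts do not separate the transgene from both H3.3 genes. Of the other 12 tested H3.3 chaperones and H3K27 enzymes, 2 were higher (Ubn1, 584 and 556 CPM, ESC median 53.3, and Crebbp) and 2 lower (Kdm6a, 31 and 28.5 CPM, ESC median 73.5, and Uty), while the HIRA subunits Hira and Cabin1 and the pair Atrx and Daxx were not called. Of 13 tested PRC2 genes 7 were lower and 1 higher: the methyltransferase gene Ezh2 lay at 217 to 312 CPM (median 276) and at 52.6 and 67.7 CPM (-2.27 ± 0.19, adjusted p = 3.09e-08), Suz12 at 308 to 493 CPM (median 387) and at 36.9 and 35.6 CPM (-3.49 ± 0.21) and Eed at 256 to 382 CPM (median 316) and at 128 and 124 CPM (-1.41 ± 0.19). Ezh1, the paralog of non-dividing cells, was not called (29.1 to 40.5 CPM (median 31) and 31.2 and 28.2 CPM), and the accessory subunit Phf1 rose (20.9 and 15.4 CPM, ESC median 5.26).

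PRC1 genes did not move in one direction (7 higher and 9 lower of 19), near the shares over all genes tested (30.4% and 38.3%). Cbx7, the main chromodomain subunit of ESCs, lay at 137 to 210.0 CPM (median 163) and at 4.44 and 5.9 CPM (-5.12 ± 0.26), against Cbx6 at 61.8 to 75.9 CPM (median 68.7) and at 596 and 542 CPM (2.96 ± 0.11). Rybp fell (42 to 110.5 CPM (median 74) and 1.76 and 1.31 CPM) and its paralog Yaf2 rose (6.95 to 15 CPM (median 10.2) and 55.4 and 52.1 CPM). The catalytic subunit gene Rnf2 was not called. DNA methylation genes were mostly lower (9 of 14, with 2 higher). Uhrf1, which brings Dnmt1 to replicated DNA, lay at 763 to 897 CPM (median 853) and at 18.9 and 22.6 CPM (-5.42 ± 0.19), Dnmt3l at 261 to 465 CPM (median 339) and at 2.03 and 1.42 CPM (-7.76 ± 0.35), and Tet1 at 231 to 605 CPM (median 429) and at 6.47 and 8.53 CPM (-5.87 ± 0.46), while Tet3 rose (6.56 to 13.1 CPM (median 10.3) and 40.3 and 42.9 CPM, 1.97 ± 0.22). Imprinted genes were divided (8 higher and 7 lower of 21). H19 (1.11 to 1.99 CPM (median 1.71) and 109 and 167 CPM, 6.28 ± 0.17) and Dlk1 (0.983 to 3.5 CPM (median 1.89) and 140.4 and 208 CPM, 6.23 ± 0.27) rose, Igf2 had no count in OPCs and at most 0.325 CPM in ESCs, and Slc38a4 (159.6 to 206 CPM (median 182) and 9.71 and 12.5 CPM) and Zdbf2 (84.9 to 264 CPM (median 159.6) and 20.4 and 30.1 CPM) fell.

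Genes of energy metabolism moved in opposite directions. Of 23 tested glycolysis genes 18 were called lower and 3 higher (median -3.4), and of the 17 with unshared ends 13 were lower and 3 higher (median -3.47). Pkm, which encodes pyruvate kinase, lay at 2129 to 2784 CPM (median 2513) in ESCs and at 186 and 219 CPM in OPCs (-3.71 ± 0.2), the glucose transporter Slc2a1 at 157 to 304 CPM (median 220.1) and at 15.2 and 24.4 CPM (-3.59 ± 0.27), and Hk2 at 246 to 510.5 CPM (median 366) and at 28.2 and 40 CPM (-3.5 ± 0.31). The members that rose were isoforms used in brain, Aldoc (23.2 to 31.5 CPM (median 27.2) and 317 and 352 CPM, 3.56 ± 0.13), Hk1 (201 and 197 CPM, ESC median 77.3) and Eno2 (25.7 and 21.5 CPM, ESC median 8.17). Of 31 tested genes of oxidative phosphorylation 14 were higher and 4 lower (median 0.71), and of the 22 with unshared ends 9 were higher and 1 lower. Ndufb3, of complex I, lay at 27.6 to 57.3 CPM (median 47.2) and at 853 and 948 CPM (4.24 ± 0.2), while the catalytic subunits Sdha, Atp5a1 and Atp5b were not called. Like ribosomal proteins, these subunits work in fixed proportion, and 6 of the 14 called higher exceeded the largest fold change of that group. Cholesterol synthesis (6 higher and 4 lower of 19, or 5 and 2 of 15 with unshared ends) and stress response genes (8 and 6 of 20, or 7 and 8 of 18 with unshared ends) had no common direction. Cyp51 rose (124 to 231 CPM (median 162) and 481 and 654 CPM), and Asns fell (531 to 834 CPM (median 723) and 21.3 and 22.7 CPM, -5.11 ± 0.23) although Atf4, its activator, rose (230.0 to 399.6 CPM (median 336) and 1881 and 1446 CPM, 2.25 ± 0.17).

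The called members of each list were also set beside the range of the ribosomal protein genes (−4.91 to 2.68), as a description. Members near 0 in 1 state could pass the filter only through the other state, where a large fold follows. The counts therefore do not rank the lists. Over all genes tested, 2363 of 4672 called higher and 1792 of 5884 called lower lay beyond the range. Among members called higher these were 12 of 13 OPC markers, 12 of 12 astrocyte markers, 18 of 21 fibroblast markers, 13 of 16 TGF-β and BMP genes, 13 of 14 cytokine genes, 8 of 9 neuronal genes and 6 of 12 ERK genes. Among members called lower they were 17 of 19 core pluripotency, 9 of 13 naive and 10 of 14 germline genes, but 4 of 9 Wnt targets, 3 of 31 replication genes, 1 of 24 mitosis genes, 3 of 18 glycolysis genes, 1 of 7 PRC2 genes and 0 of 6 neuronal genes. The falls of cell cycle, glycolysis and PRC2 genes were thus mostly of a size that single ribosomal protein genes with shared ends also showed. Ribosomal protein genes with unshared ends reached only −1.06. Over list members with unshared ends the medians were −2.75 for replication, −2.17 for mitosis, −3.47 for glycolysis and −1.91 for PRC2 genes.

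The genes of the lowest p-value, taken without regard to list, were led upward by Trib2, a pseudokinase (1.53 to 2.09 CPM (median 1.89) and 545 and 557 CPM, 8.14 ± 0.12, adjusted p = 4.3e-15), the matrix protein Tnc, at 1 count at most in any ESC library and at 1107 and 1210.1 CPM in OPCs, Slc1a3 and Sox9. The next were Gpm6b, a proteolipid of glia and neurons (0 to 0.246 CPM (median 0.115) and 748 and 809.5 CPM), Scg2 (188 and 231 CPM), Phpt1 (shared end, 240.3 and 239 CPM), Rgs2 (245 and 187 CPM) and Ppargc1a, the coactivator of mitochondrial genes (172 and 172 CPM), with ESC medians of 0, 0.926, 0.299 and 0 CPM. Downward they were Trim6 (239.6 to 291 CPM (median 252) and 1.48 and 1.31 CPM, -7.61 ± 0.22, adjusted p = 6.15e-13), Pcbp2, Ptbp1, Lbr, Gm11019, Chtf18, Kif20a, Zfp808, Fgf4 and Uhrf1. Of these 10, Pcbp2, Ptbp1, Chtf18, Kif20a and Zfp808 have shared ends. Ptbp1, which represses neuronal exons, lay at 495 to 740.0 CPM (median 643) and at 2.5 and 2.3 CPM, and Lbr, of the inner nuclear membrane (unshared), at 174 to 235 CPM (median 192) and at 1.48 and 1.75 CPM (-7.0 ± 0.23). All ESC and OPC values of the genes named here were apart, which the rule that chose them required.

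Between the 2 OPC libraries little differed. Of 8716 genes at 10 CPM or more in either library, 10 differed by more than 2-fold. Among called genes the largest differences were in ENSMUSG00000096977.2 (2.87 and 13.2 CPM), Prr18 (16.4 and 40.1 CPM), Gm5121 (shared end, 32 and 13.4 CPM), Osr1 (20 and 8.53 CPM) and Rgs8 (59.3 and 25.9 CPM). With 1 library per Dox time these differences have no replicate check.

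The change from ESC to OPC was last set beside that of the H3.3K27M line (8 ESC and 2 OPC libraries), which shares no library with it. There 4601 of 15442 genes were called higher (29.8%) and 5647 lower (36.6%). Of the 4558 genes called higher in WT-H3.3 and tested in both, 3633 (79.7%) were also higher in H3.3K27M and 93 were lower. Of the 5707 called lower, 4814 (84.4%) were also lower and 13 were higher. A test of the difference between the changes of both lines called 1130 of 15442 genes above 0 (7.32%, the change more upward in H3.3K27M) and 1548 below 0 (10%). With 1 line and 1 pair of OPC libraries for each form of H3.3, mutation, line and differentiation run cannot be told apart.

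The WT-H3.3 OPC cultures stood apart from those of H3.3K27M first in the oligodendrocyte lineage itself. Olig1 (161 and 176 CPM in WT-H3.3, 625 and 725 CPM in H3.3K27M, difference of the log2 changes 1.85 ± 0.27, adjusted p = 1.82e-05), Olig2 (350.1 and 294 CPM, 1048 and 1093 CPM, 1.88 ± 0.36) and Cspg4 (9.06 and 11 CPM, 78.3 and 106 CPM, 3.25 ± 0.7) rose less in WT-H3.3, and in all 8 of 15 tested OPC markers were called above 0. The 2 called below 0 were Pdgfra (16.5 and 24.8 CPM in WT-H3.3, 0.605 and 0.852 CPM in H3.3K27M, -4.77 ± 0.69, adjusted p = 1.8e-05) and Sox10 (2.03 and 3.61 CPM, 0.151 and 0.568 CPM, -4.3 ± 1.1, adjusted p = 0.00612), which were not called higher in H3.3K27M OPCs. The astrocyte gene Gfap was likewise called below 0 (35.5 and 25.5 CPM in WT-H3.3, 0.302 and 0 CPM in H3.3K27M, -7.5 ± 0.91, adjusted p = 2.17e-06).

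Mesenchymal and cytokine genes were called below 0 in 15 of 22 and 8 of 13 tested members and above 0 in none. Col1a1 lay at 4.69 and 2.56 CPM in H3.3K27M OPCs against 169.7 and 177 CPM in WT-H3.3 OPCs (-5.18 ± 0.96, adjusted p = 0.000315), Csf1 at 23.7 and 17.6 CPM against 345 and 257 CPM (-2.73 ± 0.71), and Shh at 0.907 and 0 CPM against 72.5 and 44.6 CPM (-5.4 ± 1.53). The TGF-β and BMP list was below 0 in 13 of 23. Cell cycle genes went the other way: 26 of 34 replication and 25 of 30 mitosis genes were above 0 and none below, so that Top2a lay at 871 and 900.5 CPM in H3.3K27M OPCs against 168 and 199 CPM in WT-H3.3 OPCs (2.15 ± 0.19, adjusted p = 2.83e-08). The summed fibroblast list was 1244 and 994 CPM in H3.3K27M OPCs against 5092 and 4543 CPM in WT-H3.3 OPCs, and its part in the other differences was not tested. The 5 genes of the lowest p-value above 0 were Gjc1, Tle6, Nr5a2, Top2a and Esco2, and below 0 they were Klf5, F11r, Hspb8, Ppp1r15a and Hbegf. Tle6 was not called in WT-H3.3 (17.9 and 12.9 CPM, ESC median 11.9) and lay at 322 and 313 CPM in H3.3K27M OPCs, and Hbegf, a ligand of the EGF receptor, lay at 665 and 564 CPM in WT-H3.3 and 33.1 and 30.1 CPM in H3.3K27M OPCs.

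**Figure D5:**
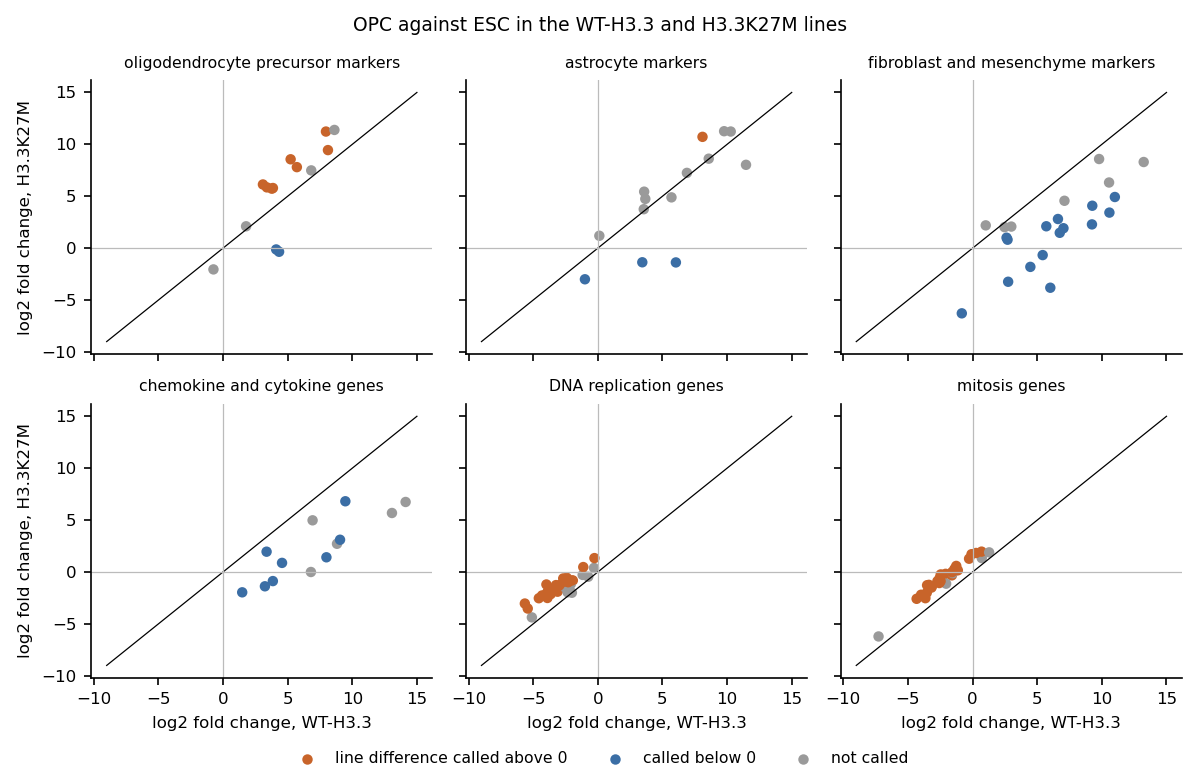
Log2 fold change of OPC against ESC in the WT-H3.3 line (x axis) and the H3.3K27M line (y axis) for the members of 6 lists tested in both, with equality as a line. Points of fibroblast and cytokine genes lie below the line (15 of 22 and 8 of 13 called), and those of replication and mitosis genes above it (26 of 34 and 25 of 30 called).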

How the data were processed

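Raw counts per gene, as deposited by the authors, were used for 10 WT-H3.3 and 10 H3.3K27M RNA-seq libraries. Per the labels' processing notes, reads were aligned with STAR 2.7.1 to mm9; the counting tool and annotation release are not given in the sources used here. The ESC and OPC tables hold counts on the same 55471 gene identifiers and were joined unscaled. The columns of 22 other libraries were not used. Coordinates are those of mm9 as the annotation used here gives them (32589 identifiers, 98.1% of counts), except for promoters. Genes of chromosome 8 (2532 identifiers, 5.89% of counts) were left out, as the study's methods do because of its potential duplication in the clones.

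Counts were fitted in R 4.3.3 with edgeR 4.0.16 (filterByExpr, TMM, glmQLFit and glmQLFTest), with 1 mean for each cell type, and p-values were adjusted by Benjamini-Hochberg over all genes tested. Calls needed a fold above 2 or below 0.5 and an adjusted p under 0.05. Each SE was back-calculated as the absolute log2 fold change over the square root of its F statistic. For genes near 0 counts in 1 cell type the precision it implies was not tested. The 3 comparisons were OPC against ESC over 10 libraries, the same against ESCs of 24 and 72 h with Dox time in the model, and the difference between the changes of the WT-H3.3 and H3.3K27M lines. CPM values are scaled by the TMM factors of all 20 libraries of both lines. Log2 fold changes of WT-H3.3 come from the fit of its 10 libraries, so they can differ slightly from the ratio of the CPM values. Folds for genes without a count take a floor of 3 counts in each library, which like the depth covers counting error only. No pair of libraries was a copy of another. The test was checked on simulated counts for OPC against ESC (14585 genes, 200 of them changed). Dispersion, the spread between libraries, was set to 0.0414 there. Of the changes, 82% of 2.5-fold, 96% of 4-fold and 100% of 8-fold ones were called, none of the 1.5-fold ones and 3 unchanged genes. Far fewer genes were changed there than the 10556 called in the data. How the test performs with that many changes, or with OPC libraries varying unlike ESC libraries, was not tested.

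Members and gene lists were chosen with earlier results of these data known. A list is described by its counts beside the share of all genes called. Of 797 list symbols 787 were matched to the tables, and the rest, such as Lhfpl3, Sox1 and Hoxd4, were not analysed here, nor were list genes on chromosome 8, such as Klf2 and Zfp42. Named genes are defining markers of each list, its called members of lowest p and members moving against it, the 10 genes of lowest p in each direction whose OPC libraries lie outside the ESC range at a mean of 10 CPM or more, the 5 of lowest p in each direction between lines, the 5 of largest difference between OPC libraries, Sox2, Nanog, H3f3a and H3f3b. A few genes that the rule names are not reported here. Shared ends were computed from the mm9 genome and annotation: at least 10% of a gene's last 500 exonic bases overlapping another gene's exons or holding 40-base words of another gene. Promoters (RefSeq, GRCm38.p6) were found for 9484 of 13977 tested symbols. Alternatives were DESeq2 1.42.0, limma 3.58.1 voom, other scalings, filters, thresholds and models, a replicate block, and leaving out each library. The use of genes with unshared ends only and of the fold range of ribosomal proteins were chosen after seeing the data.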

Additional observations from a re-analysis of the deposited data

Results flagged for a closer look

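Among 180 named genes whose 8 ESC libraries could be examined, 6 had an ESC library that stood apart from the other 7 (Dixon's ratio above its critical value for 8 samples), and chance gives this for about 1 group in 20. The library apart was the lowest for Actg1 (118 CPM). It was the highest for Bcan (3.82 CPM), Col1a1 (5.25 CPM), Hoxa5 (1.84 CPM), Hoxd8 (4.67 CPM) and Mal (3.77 CPM). Apart from Mal, these genes kept their calls without any 1 library.

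For 93 named genes the change from ESC to OPC differed between the lines, by the test of that difference. Values are the log2 change in H3.3K27M minus that in WT-H3.3, so a value below 0 is a more upward or less downward change in WT-H3.3. Both lines share a design but no library, and cell line, differentiation run and mutation cannot be told apart.

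In the glial lineage the difference was 1.85 for Olig1, 1.88 for Olig2, 3.25 for Cspg4, 3.21 for Nkx2-2, 1.25 for Ptprz1, 2.01 for Bcan, 2.54 for Nfia and 3.09 for Prr18. It was below 0 for Sox10 (-4.3), Pdgfra (-4.77), Gfap (-7.5), Aldh1l1 (-2.09), Mbp (-2.4) and the filament gene Vim (-1.65). Early neural genes lay above 0, with 2.96 for Sox3, 3.28 for Pax6, 2.5 for Hes5 and 3.64 for Dbx2. Neuronal and guidance genes were split between Stmn2 (-7.33) and Eno2 (-4.26) below 0 and Sema6a (1.32) above it.

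Named genes of matrix, endothelium and endoderm were below 0. The matrix genes Col1a1 (-5.18), Col3a1 (-6.13) and Fn1 (-5.53), the mesenchymal factor Snai2 (-3.74), the mesoderm factor Osr1 (-6.36), the VEGF receptors Kdr (-4.82) and Flt1 (-5.01), and Gata6 (-3.68), Sox17 (-4.42) and Apoe (-1.65) were among them. Ligands and feedback genes followed, with -5.4 for Shh, -6.35 for Inhba, -2.73 for Csf1, -4.37 for Hbegf, -3.5 for Nog, -4.87 for Fst, -4.14 for Hey1, -2.31 for Smad7, -1.5 for Nfkbia and -3.53 for Apcdd1, and the receptor gene Rarg at -1.41. Axin2 (2.53), Etv5 (2.19) and Ets1 (1.59) lay above 0. Among hedgehog components Gas1 (3.26) and Smo (1.02) lay above 0 and Boc (-1.19) below. Stress and arrest genes were below 0, at -1.83 for Cdkn1a, -2.89 for Cdkn2b, -1.69 for Mdm2, -1.28 for Atf4, -3.66 for Ppp1r15a and -5.11 for Hspb8, and so was the hexokinase gene Hk1 (-1.68).

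Above 0 were the cell cycle genes Top2a (2.15), Mki67 (1.46), Mcm2 (1.11), Cdk1 (1.71), Plk1 (1.19), Birc5 (1.48), Ccne1 (1.62), Esco2 (2.23) and Chtf18 (4.43). So were chromatin genes, at 1.62 for Ezh2, 1.05 for Suz12, 2.07 for Uhrf1, 1.29 for Dnmt1, 2.14 for Tet1, 1.04 for Hira, 1.59 for H3f3a and 1.66 for Lbr, whereas Ezh1 (-1.43) and Dnmt3l (-6.64) lay below 0. Of the pluripotency genes, Esrrb (3.18) and Nr5a2 (4.86) were above 0 and Tfcp2l1 (-3.73), Klf4 (-4.27), Klf5 (-4.41), Stat3 (-1.24) and Trim6 (-2.45) below. Imprinted and Hox genes gave -4.48 for H19, -4.27 for Dlk1, -4.49 for Slc38a4, -1.84 for Zdbf2, 2.2 for Hoxb9, 1.99 for Hoxd8 and -5.58 for Hoxc13. The remaining values were -5.64 for Rhox6, -5.28 for F11r, 2.77 for Gjc1, 4.12 for Tle6 and -4.96 for ENSMUSG00000096977.2.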

How the results depend on the processing

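For OPC against ESC in WT-H3.3, 10556 genes were called, and the total stayed within 1.5 times of this except in 2 settings, of which the second was chosen after seeing the data. It was 5576 (2685 higher, 2891 lower) among genes of at least 10 counts in every library, where fewer genes are tested, and 4155 with a fold beyond the range of ribosomal protein genes, where 56.9% were higher instead of 44.3%. In the same settings the list members called were 329 and 251 instead of 533. Leaving out 1 library gave 10411 to 10702. The median over all genes tested was −0.25, against −0.15 with DESeq2's size factors, −0.11 with 20 libraries, 0.01 with an offset for gene length, −0.07 over unshared ends, −0.02 with the 10-count filter and −0.99 without a filter. A replicate block gave 10571 calls and 533 list members, 10186 instead of 10213 when it took the place of Dox time at 24 and 72 h, and 2863 instead of 2678 for the difference between lines. Replicate differences in ESCs did not follow that in OPCs (correlations −0.007 to −0.054 over 9059 genes), so the numbers are not shown to pair libraries. For the difference between lines, leaving out 1 library gave 2030 to 2784 calls, and without the WT-H3.3 OPC library of 24 h 750 instead of 1130 were above 0. The mean Spearman coefficient of OPC with ESC libraries was 0.584, 0.368 over genes of at least 10 CPM and 0.577 after thinning. Cdk1, called in no setting, turned from -0.08 to 0.012 with DESeq2 and with its size factors, 0.11 without the OPC library of 24 h, 0.004 with 20 libraries and 0.18 with the length offset, and the cause was not tested. Among values of named genes under alternatives 5751 kept direction and side of the threshold, 145 lost the call, 7 gained one and 5 reversed, and 69 of 215 genes had at least 1 such setting. Precision in OPCs is limited by 2 libraries, and under about 0.3 CPM by depth.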

Other observations

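Neural crest and Schwann cell markers, the other neural derivative that embryoid bodies can hold, were divided in the WT-H3.3 OPC cultures, with 4 of 9 tested called higher and 5 lower. Ets1 (0.449 to 1.11 CPM (median 0.718) in ESCs and 78.1 and 77.4 CPM in OPCs, 6.66 ± 0.21) and Snai2 (0.497 to 1.5 CPM (median 0.77) and 15.3 and 18.9 CPM), which mesenchyme also expresses, and Twist1 (2.69 to 5.19 CPM (median 3.9) and 10.1 and 11.7 CPM) were higher. The crest specifier Foxd3, which ESCs express as well, lay at 16.6 to 25.8 CPM (median 21.8) in ESCs and had 2 counts and 0 in OPCs. The receptor genes Erbb3 (51.3 to 77.8 CPM (median 68.2) and 0.462 and 0.875 CPM) and Ngfr (25.8 to 52.8 CPM (median 36.5) and 0.37 and 0.328 CPM) were lower. Of 9 tested Y-linked genes and RNAs of X inactivation 6 were lower and none higher (median -1.44).

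Chromosomes, length and gene types were read over annotated genes at a mean of 1 CPM or more. Among the autosomes tested, the median log2 fold change ran from -0.56 on chromosome 17 (640 genes) to 0.25 on chromosome 3 (619 genes). It was -1.68 over 11 mitochondrial and -1.41 over 6 Y-linked genes. The median of −0.25 over all genes tested has no such filter. Per doubling of exonic length, CPM rose by 0.21 to 0.49 on the log2 scale in ESC libraries and by 0.47 in both OPC libraries. Pseudogenes had a median of -4.61 (296 that passed this filter, 74.7% called lower).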
